A study of Saccharomyces cerevisiae with 15 samples.

Results

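The effect of rpb1S751F on the transcriptome of budding yeast (Saccharomyces cerevisiae) was set against the effect of rpb2-10, gene by gene, as a difference of differences. The rpb1S751F effect is the level in rpb1S751F minus that in its wild type WT1B, the rpb2-10 effect is the level in rpb2-10 minus that in its wild type WT1A, and the difference is the first effect minus the second. Of the 15 arrays of the series, the 12 arrays of these 4 groups enter, with 3 biological replicates each, and all 5449 genes with a named probe set were compared. A positive difference means that the rpb1S751F effect lay above the rpb2-10 effect.

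All strains were W303 haploids. Per the labels they carry RAD5 together with the alleles ade2-1 and ura3-1, the arginine permease allele can1-100, the histidine allele his3-11,15, the leucine allele leu2-3,112 and the tryptophan allele trp1-1. WT1B (strain W303-1BR5) and rpb1S751F (WSR8-5A) are MATα, and WT1A (W303-1AR5) and rpb2-10 (WRP2) are MATa. Each mutation was carried by 1 strain, harvested from rich liquid medium in mid-log growth, and no growth temperature is given in the labels. Total RNA was hybridised to 1-colour Affymetrix Yeast Genome 2.0 arrays, and the deposited values are log2 levels. The median over genes was 10.04 to 10.08 in alpha-strain arrays and 7.75 to 7.83 in a-strain arrays, so the arrays appear normalised as 2 sets. The mutated subunit, the mating type and the array set coincide in the difference and cannot be told apart. Effects remove a constant offset between the sets, and levels are therefore compared within a set only, unless stated as centred on the median of each array. Replicates correlated across genes at 0.987 to 0.998, and the median SD of a gene among replicates was 0.113 in WT1B, 0.125 in rpb1S751F, 0.0657 in WT1A and 0.0664 in rpb2-10. The number of arrays limits the precision, and p-values measure the spread among these cultures.

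RNA polymerase II transcribes all messenger RNAs of yeast. Its largest subunit, Rpb1, is encoded by RPO21 and its second largest, Rpb2, by RPB2, and the 2 subunits form the active centre cleft from opposite sides. The allele rpb2-10 is known as a slow-elongation mutant that is sensitive to drugs which lower nucleotide pools, and rpb1S751F is a substitution in Rpb1. Steady-state RNA levels, as measured here, depend on both synthesis and decay of each messenger. After normalisation of this kind a change common to most genes is not seen, so higher and lower mean relative to the other genes of the array set.

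The labels were checked against mating-type genes, centred on array medians. The alpha-factor gene MF(ALPHA)1 stood at 3.61 ± 0.10 (SD, n = 3) in WT1B and 2.83 ± 0.44 in rpb1S751F, and at -5.98 ± 0.20 in WT1A and -6.00 ± 0.08 in rpb2-10. The receptor gene STE2 of a cells stood at -3.16 ± 0.14 and -2.65 ± 0.11 in the alpha strains and at 2.87 ± 0.02 and 3.49 ± 0.12 in the a strains. All 4 groups thus carried the mating-type pattern of their label. The mutations are point alleles that the probe sets do not resolve, so RPO21 and RPB2 levels do not check the mutant labels. RPO21 read 11.40, 11.29 and 11.20 in WT1B and 11.63, 11.75 and 11.63 in rpb1S751F, a rise of 0.37 ± 0.08 (log2, SE). It read 7.93, 7.95 and 7.86 in WT1A and 8.0, 7.99 and 8.20 in rpb2-10, at 0.15 ± 0.07 without a call, and the difference of 0.22 was not called either (limma, adjusted p = 0.0965, 95% interval -0.01 to 0.46). It was called without WT1B replicate 1 (limma, adjusted p = 0.0476) and without rpb2-10 replicate 3 (0.034). RPB2 rose by 0.36 ± 0.08 in rpb1S751F and stood at 0.00 ± 0.06 in rpb2-10, and that difference was called at 0.36 ± 0.10 (limma, adjusted p = 0.00839).

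Over all genes, the effects of the mutants differed for 53.9% of genes, and genes of respiration, of alternative carbon use and of the general stress response were mostly higher in rpb1S751F relative to rpb2-10. The difference was called, at a limma adjusted p below 0.05, for 2936 of 5449 genes (53.9%), with 1746 above 0 (32.0%) and 1190 below 0 (21.8%). It reached at least 1 on the log2 scale for 822 of them (15.1%), 554 above 0 (10.2%) and 268 below (4.92%). The larger side depended on the scaling: the counts were 1538 and 1437 with arrays centred on their medians, and 1440 above against 1447 below when the 12 arrays were quantile-normalised together. Taken alone, rpb1S751F changed 2922 genes (53.6%), 1677 higher (30.8%) and 1245 lower (22.8%). For rpb2-10 the count was 3877 (71.2%), 1745 higher (32.0%) and 2132 lower (39.1%). Counts of gene list members given below are to be read against these shares of all genes. The counts of the mutants are not comparable, since the median SE of an effect was 0.104 in the alpha set and 0.0592 in the a set. Changes of at least 1 numbered 611 (11.2%) in rpb1S751F, 382 higher (7.01%) and 229 lower (4.2%), and 352 (6.46%) in rpb2-10, 115 higher (2.11%) and 237 lower (4.35%), and the SD of the effects over genes was 0.68 and 0.59. The same contrasts on the 1746 probe sets for genes of another species on this array, which have no target in these cells, called 0 in limma for the difference and for either effect, with 147 at an unadjusted p below 0.05 for the difference.

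**Figure D1:**
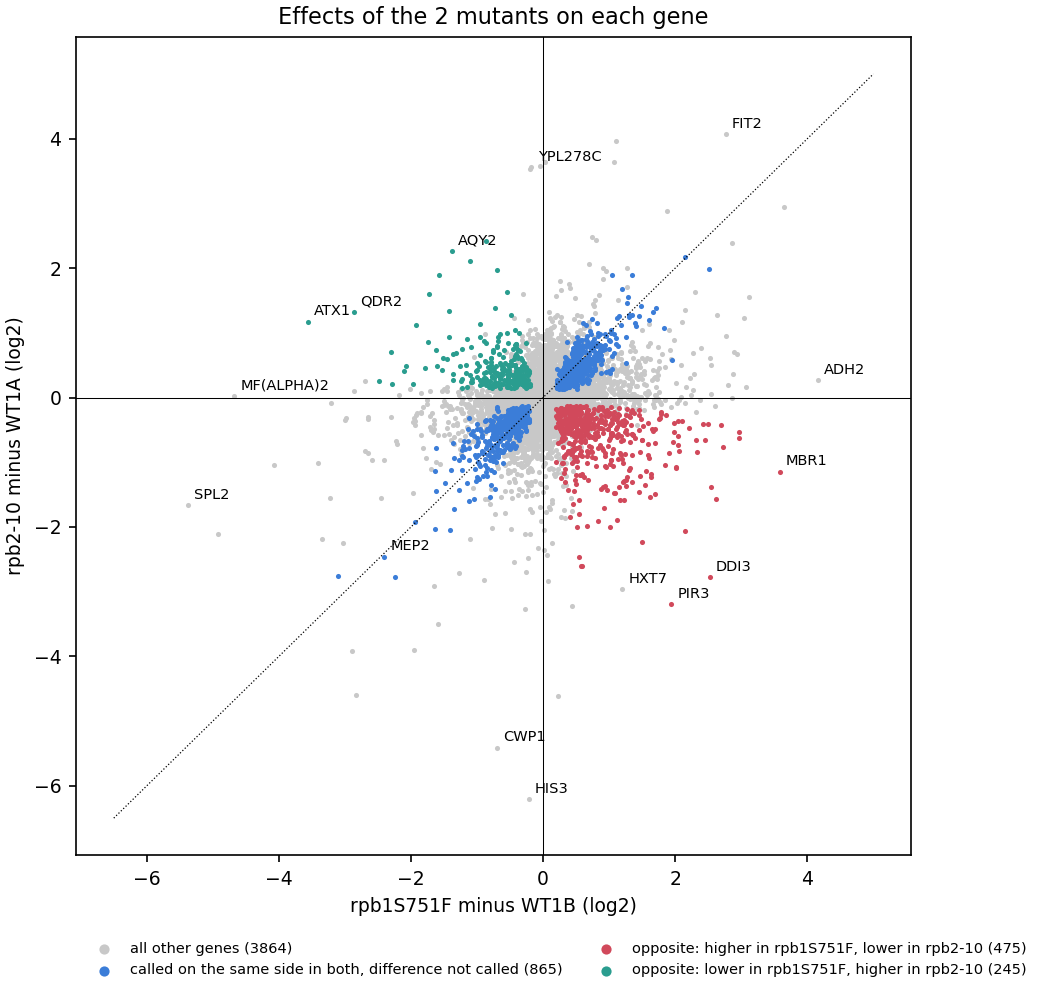
Each point is 1 of 5449 genes, with the log2 effect of rpb1S751F on the horizontal axis and that of rpb2-10 on the vertical axis. Genes called on opposite sides (475 and 245) fill the lower right and upper left areas, the 865 genes with a shared change lie along the dotted line of equal effects, and HIS3 and CWP1 stand far below the rest.

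Genes that the mutants moved in opposite directions numbered 720, which is 13.2% of those tested. Of these, 475 were higher in rpb1S751F and lower in rpb2-10, and 245 were lower in rpb1S751F and higher in rpb2-10. They supplied 440 of the 822 differences of at least 1. Effects of opposite sign add up in the difference, so a large part for this class follows from its definition. A further 388 genes were called as higher and 269 as lower in rpb1S751F with no call in rpb2-10, and 408 and 513 the other way round. Among genes moved to the same side, 421 moved further in rpb1S751F and 153 further in rpb2-10, and 64 genes had a called difference with neither effect called. In 2159 genes both effects were called. That is 73.9% of the rpb1S751F calls, near the 71.2% of all genes called in rpb2-10. It is 55.7% of the rpb2-10 calls, near the 53.6% of all genes called in rpb1S751F. The effects lay on the same side in 1439 of the 2159 genes (66.7%). Across all 5449 genes the effects correlated at Pearson's r = 0.22 and Spearman's rho = 0.26. These are descriptions across genes, which are not independent replicates, and the effects share no control arrays.

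**Figure D2:**
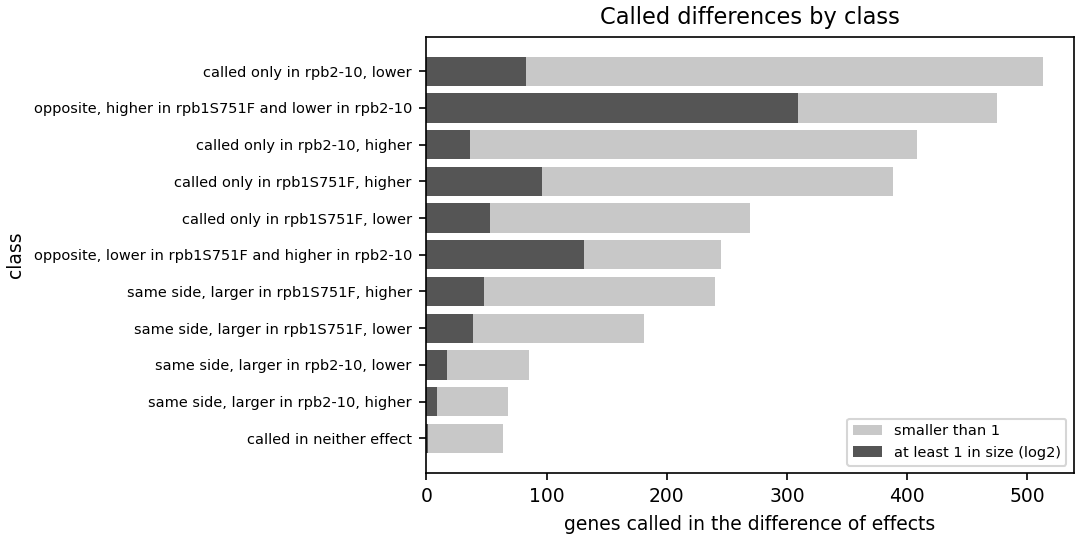
Bars count the 2936 genes with a called difference by the calls of each mutant's own effect, and the dark stretch of each bar gives those with a difference of at least 1 (log2). The class higher in rpb1S751F and lower in rpb2-10 holds 309 of these large differences, more than any other class. Opposite effects add up in the difference, which favours large values in the opposite classes.

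The genes with the largest opposite responses included DDI3, PIR3 and MBR1. DDI3, a cyanamide hydratase gene induced by DNA damage whose probes are shared with a near copy, read 6.07, 6.31 and 6.35 in WT1B and 8.90, 8.77 and 8.62 in rpb1S751F. In the a set it read 5.28, 5.38 and 5.17 in WT1A and 2.36, 2.63 and 2.53 in rpb2-10. No array of a mutant overlapped its wild type, as in 3407 genes for rpb1S751F (62.5%) and 4144 for rpb2-10 (76.1%), and the difference was 5.29 ± 0.14 (limma, adjusted p = 1.2e-09). PIR3, a covalently bound cell wall protein, rose from 8.94, 9.05 and 9.20 to 10.64, 11.29 and 11.08 in rpb1S751F. It fell from 7.82, 7.81 and 8.0 to 4.51, 4.47 and 5.07 in rpb2-10, giving a difference of 5.13 ± 0.25. Again the 3 mutant arrays stood apart from the wild-type arrays on either side.

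MBR1, a gene linked to mitochondrial function, rose by 3.58 ± 0.11 in rpb1S751F, with arrays at 9.48, 9.76 and 9.38 against 5.90, 5.96 and 6.02. It fell by 1.14 ± 0.17 in rpb2-10, from 4.25, 4.47 and 4.20 to 2.75, 3.23 and 3.51. SUE1, which acts in the degradation of cytochrome c, rose by 2.62 ± 0.32 and fell by 1.56 ± 0.08. PUT4, the high-affinity proline permease, rose by 2.15 ± 0.35 and fell by 2.07 ± 0.08. YPS6, a cell-surface protease of the yapsin family, rose by 1.61 ± 0.21 and fell by 1.54 ± 0.07. For these 4 genes no rpb1S751F effect of a single array overlapped an rpb2-10 effect. For MBR1, SUE1 and PUT4 that was a condition of their choice. The per-array effects were free of overlap in 3913 of the 5449 genes (71.8%), so this is no special feature of these genes.

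On the opposite side stood a copper chaperone, membrane transporters and a phospholipase. ATX1, which carries copper to the secretory pathway, read 12.97, 13.07 and 13.26 in WT1B and 9.47, 9.57 and 9.56 in rpb1S751F. It read 8.70, 8.61 and 8.72 in WT1A and rose to 9.78, 10.09 and 9.68 in rpb2-10. The effects were -3.56 ± 0.09 and 1.17 ± 0.10, and the difference of -4.74 ± 0.15 was the lowest of all genes. QDR2, a multidrug transporter of the plasma membrane, fell by 2.86 ± 0.17 in rpb1S751F and rose by 1.33 ± 0.04 in rpb2-10, where its arrays read 9.15, 9.20 and 9.18 against 7.86, 7.86 and 7.82. AQY2, a water channel, went from 9.98, 9.89 and 9.59 to 8.43, 8.54 and 8.35 in rpb1S751F. In rpb2-10 it went from 8.46, 8.70 and 8.48 to 10.77, 11.00 and 10.67. PLB2, a phospholipase B, fell by 1.58 ± 0.08 and rose by 1.89 ± 0.07. MIX14, a protein of the mitochondrial intermembrane space, fell by 1.72 ± 0.22 and rose by 1.59 ± 0.09, and DAD4, a subunit of the kinetochore DASH complex, fell by 1.43 ± 0.12 and rose by 1.34 ± 0.10.

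**Figure D3:**
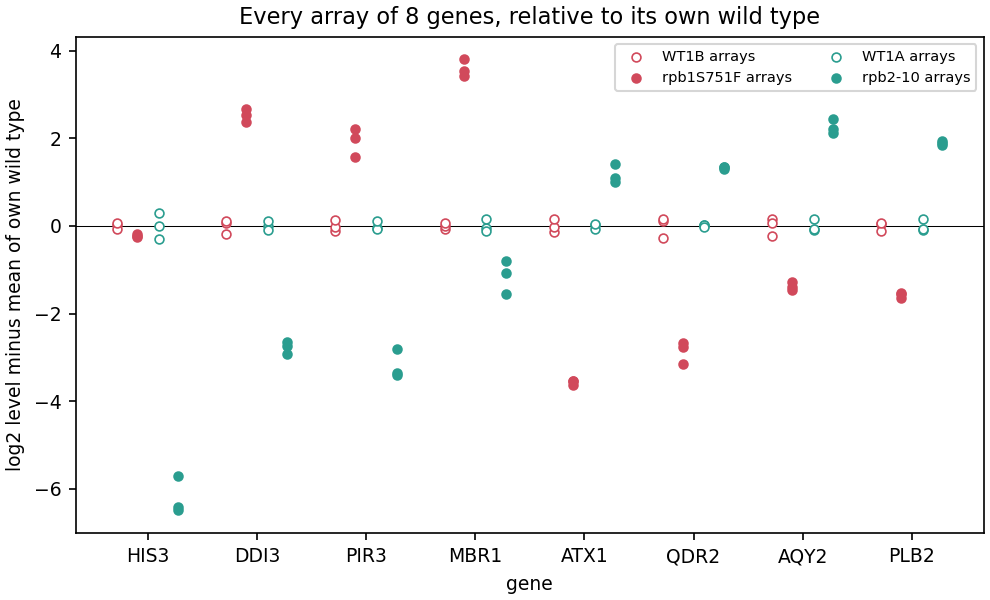
Each circle is 1 array, as the log2 level minus the mean of its own wild type, for 8 genes. Open circles are wild-type arrays and filled circles mutant arrays; in DDI3, PIR3 and MBR1 the rpb1S751F arrays lie above 0 and the rpb2-10 arrays below, and in ATX1, QDR2, AQY2 and PLB2 the order is turned.

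A large difference could leave the mutants far apart or bring them closer, and both occurred. After centring, the wild types themselves were at least 1 apart in 202 of the 822 genes and the mutants in 404. In 283 of the 822 the mutants lay closer to each other than the wild types did, and in 539 the wild types lay closer. DAD4 is of the former kind: centred levels were 2.45 in WT1B and 0.04 in WT1A, against 1.02 in rpb1S751F and 1.45 in rpb2-10. MIX14 likewise stood 1.82 higher in WT1B than in WT1A and at -1.57 in rpb1S751F minus rpb2-10, so that the order of the strains turned. MBR1 is of the latter kind, with centred levels of -4.09 and -3.51 in the wild types and -0.52 and -4.59 in the mutants. Centred levels cross the array sets, so they describe these arrays and were not tested.

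Several of the extreme differences came wholly or mainly from 1 mutant. HIS3, which encodes an enzyme of histidine synthesis, had the highest difference of all genes at 5.98 ± 0.26 (limma, adjusted p = 3.08e-08). It read 9.48, 9.40 and 9.53 in WT1B, 9.24, 9.29 and 9.23 in rpb1S751F and 8.32, 8.61 and 8.03 in WT1A, but 1.84, 2.62 and 1.91 in rpb2-10. The 95th percentile of the probe sets of another species was 1.84 to 1.87 on those 3 arrays, so HIS3 lay at or little above background there and its fall of 6.20 ± 0.21 is bounded by that floor. CWP1, a cell wall mannoprotein, read 4.70, 4.68 and 4.74 in rpb2-10 against 10.05, 9.98 and 10.33 in WT1A, a fall of 5.41 ± 0.09. In rpb1S751F it fell by 0.70 ± 0.17. YDL241W, a gene without a known function, fell by 4.62 ± 0.08 in rpb2-10 and stood at 0.23 ± 0.23 in rpb1S751F without a call.

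The lowest differences held another set of such genes. MF(ALPHA)2, the minor alpha-factor gene, fell by 4.68 ± 0.28 in rpb1S751F, from 13.08, 12.72 and 12.72 to 8.83, 7.89 and 7.75. In the a strains, which do not transcribe it as a rule, it read 2.56 to 2.81 in WT1A and 2.53 to 2.84 in rpb2-10. Its difference was -4.71 ± 0.32, and all 6 arrays of the a strains lay far below those of the alpha strains once arrays were centred. SPL2, a regulator of phosphate transport, fell in both mutants, by 5.37 ± 0.19 in rpb1S751F and by 1.67 ± 0.12 in rpb2-10. GIS3 rose by 3.63 ± 0.13 in rpb2-10, from 2.08, 2.38 and 2.72 to 5.98, 6.05 and 6.05, and stood at 0.04 ± 0.19 in rpb1S751F. YOR389W, YPL277C and YPL278C rose by 3.52 ± 0.05, 3.58 ± 0.05 and 3.56 ± 0.05 in rpb2-10, with rpb1S751F effects of -0.20, -0.05 and -0.18 that were not called. The latter 2 are neighbours, their probes are shared with other sequences, and they may therefore not be separate observations.

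Genes repressed by glucose lay almost wholly on the side higher in rpb1S751F. When glucose is plentiful, yeast ferments and keeps genes for respiration and for other carbon sources low. Of 37 measured genes for alternative carbon use, 35 had a difference called above 0 (against 32.0% of all genes), 1 had a difference below 0 and the median difference was 1.60 (0.07 over all genes). Their median effect was 1.13 in rpb1S751F, with 29 higher (78.4%, against 30.8% of all genes) and 1 lower. In rpb2-10 it was -0.29, with 2 higher (5.4%, against 32.0%) and 21 lower (56.8%, against 39.1%). Medians of the list by array were 1.00, 1.45 and 1.17 in rpb1S751F and -0.29, -0.33 and -0.21 in rpb2-10. The groups did not overlap, nor did the medians over all genes, at 0.03 to 0.06 in rpb1S751F and -0.05 to -0.04 in rpb2-10. Of the 37 members, 15 were called on opposite sides, against 13.2% of all genes. ADH2, whose enzyme oxidises ethanol, rose by 4.16 ± 0.08 in rpb1S751F and stood at 0.27 ± 0.14 in rpb2-10 without a call. YAT1 and YAT2, carnitine acetyltransferases, rose by 2.03 ± 0.10 and 1.08 ± 0.08 in rpb1S751F and fell by 0.60 ± 0.06 and 1.48 ± 0.07 in rpb2-10. For YAT1 the arrays read 8.31, 8.39 and 8.25 in WT1B, 10.19, 10.47 and 10.40 in rpb1S751F, 6.54, 6.59 and 6.46 in WT1A and 5.90, 5.85 and 6.03 in rpb2-10. CRC1, the mitochondrial carnitine carrier, rose by 1.49 and fell by 2.23, and POT1, the thiolase of fatty acid oxidation, rose by 2.97 and fell by 0.54. The transcription factor gene ADR1, an activator of many of these genes, rose in both mutants, by 3.11 and 1.55. PXA1, a fatty acid transporter of peroxisomes, was the member with a difference below 0, at -0.41.

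Respiratory genes followed the same pattern at a smaller size. Of 39 genes for the respiratory chain, ATP synthase and cytochrome c, 36 had a difference above 0 (92.3%, against 32.0% of all genes). The difference was below 0 for 1, ATP17, and the median was 0.79. The median effect was 0.67 in rpb1S751F, with 30 higher (76.9%, against 30.8% of all genes) and 1 lower. In rpb2-10 it was -0.17, with 5 higher (12.8%, against 32.0%) and 20 lower (51.3%, against 39.1%). Of the 39 genes, 14 were called on opposite sides, against 13.2% of all genes. CYC1, the main cytochrome c, rose from 12.70, 12.67 and 13.04 to 13.43, 13.57 and 13.62 in rpb1S751F. It fell from 11.23, 11.27 and 11.14 to 10.23, 10.30 and 10.37 in rpb2-10. The difference was 1.65 ± 0.14 (limma, adjusted p = 2.13e-06). All mutant arrays lay outside the range of their wild type, as in 62.5% of all genes for rpb1S751F and 76.1% for rpb2-10. COX5A, a subunit of cytochrome c oxidase, rose by 0.67 ± 0.08 and fell by 0.51 ± 0.05. CYC7, the hypoxic cytochrome c, fell by 3.23 ± 0.21 in rpb2-10 and stood at 0.44 ± 0.25 in rpb1S751F without a call. Subunits of complex III such as CYT1 and RIP1 rose by 1.24 and 1.03 and fell by 0.53 and 0.56, whereas the ATP synthase genes ATP1 and ATP2 rose by 0.67 and 0.55 and stood at 0.04 and 0.03 in rpb2-10.

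The tricarboxylic acid cycle differed from respiration in rpb2-10, where its genes were mostly higher. Of 15 genes, 12 had a difference above 0 (80%, against 32.0% of all genes) and none below. The median effect was 1.00 in rpb1S751F, with 14 higher (93.3%, against 30.8%). In rpb2-10 it was 0.34, with 8 higher (53.3%, against 32.0%) and 2 lower (13.3%, against 39.1%). CIT1, the mitochondrial citrate synthase, rose in both, by 2.08 and 0.50. ACO1, FUM1 and LSC2 also rose in both and their differences were not called. LPD1 and IDP1 rose by 0.78 ± 0.10 and 0.54 ± 0.07 in rpb1S751F, with effects of 0.06 and -0.03 in rpb2-10 that were not called. Of 21 genes of glycolysis and fermentation, 16 had no called difference, and the list median was -0.01 (0.03 with joint quantile normalisation). Effects were called for 8 of them in rpb1S751F, 7 higher and 1 lower, and for 10 in rpb2-10, 8 higher and 2 lower. The called members were GLK1, PDC6, ADH4 and ENO1 above 0 and ENO2 below. ADH4 read 10.65, 10.88 and 10.68 in WT1B, 11.35, 11.40 and 11.31 in rpb1S751F, 9.03, 9.08 and 8.97 in WT1A and 8.48, 8.53 and 8.51 in rpb2-10, so its arrays moved in opposite directions. PDC6 rose by 1.17 ± 0.10 in rpb1S751F and stood at -0.04 ± 0.09 in rpb2-10.

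Of 18 genes for glucose transport and sensing, 11 had a difference above 0 (61.1%) and 2 below (11.1%). HXT1, the low-affinity transporter of cells in high glucose, fell by 1.92 ± 0.10 in rpb1S751F, with arrays at 10.31, 10.44 and 10.56 against 12.28, 12.51 and 12.28. In rpb2-10 it fell by 0.26 ± 0.05, and HXT3, another low-affinity form, fell by 0.98 in rpb1S751F and stood at -0.03 in rpb2-10. HXT7, a high-affinity form with shared probes, fell by 2.96 ± 0.07 in rpb2-10 and stood at 1.20 ± 0.45 in rpb1S751F without a call, where WT1B arrays themselves ranged from 9.96 to 11.80. HXT5 and MTH1, a repressor of transporter genes, rose by 1.17 and 1.46 in rpb1S751F and fell by 1.59 and 1.21 in rpb2-10. The aryl-alcohol dehydrogenase family, whose members are similar in sequence, had 5 of 5 differences above 0, of which 2 came from shared probes. AAD4 and AAD10 rose by 1.27 ± 0.09 and 0.68 ± 0.13 in rpb1S751F and fell by 0.57 ± 0.07 and 1.27 ± 0.09 in rpb2-10.

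**Figure D4:**
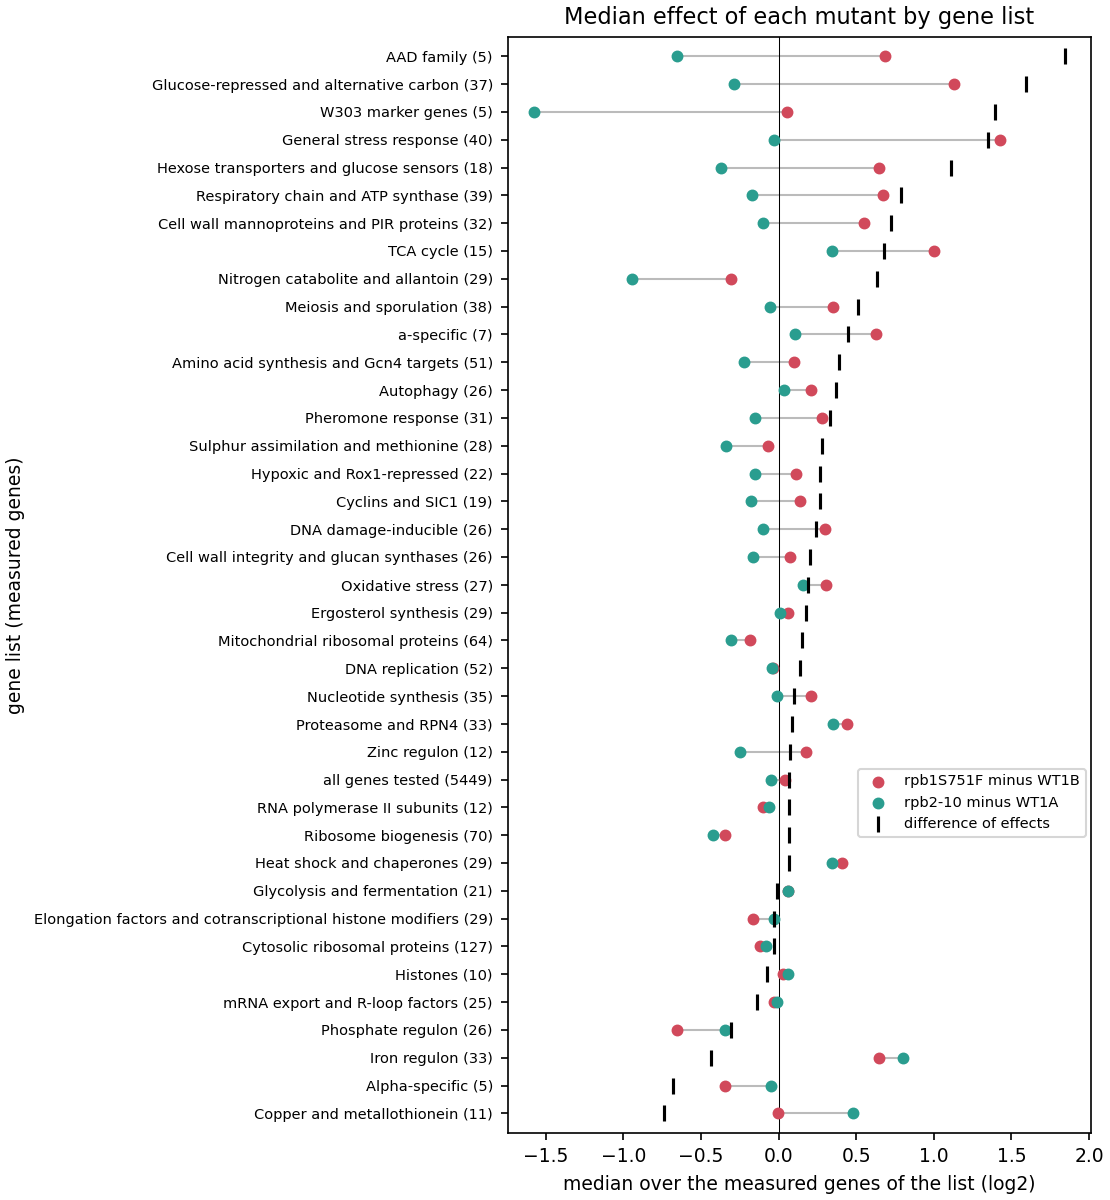
For each gene list, ordered by its median difference, red and green points give the median log2 effect of rpb1S751F and rpb2-10 over the measured genes, and the black tick gives the median of the difference of effects. The alternative carbon and respiratory chain lists have points on either side of 0. The rpb2-10 point of the general stress list, at -0.03, lies near that of all genes, at -0.05. The proteasome, chaperone and ribosome biogenesis lists have both points together on 1 side.

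The general stress response, which yeast mounts under many adverse conditions, was raised in rpb1S751F and called about as often as all genes in rpb2-10. Of 40 genes, 30 had a difference above 0 and 1, YGP1, below 0, with a median of 1.35. In rpb1S751F 33 genes were higher (82.5%, against 30.8% of all genes) and 1 lower, with a median of 1.43. In rpb2-10 14 were higher (35%, against 32.0% of all genes) and 15 lower (37.5%, against 39.1%). The median there was -0.03, against -0.05 over all genes. The list median by array was 0.99, 1.78 and 1.51 in rpb1S751F and -0.02, -0.19 and 0.00 in rpb2-10. HSP12, a small stress protein of the plasma membrane, rose from 9.96, 10.22 and 10.71 to 12.49, 13.20 and 12.84 in rpb1S751F. It fell from 8.64, 8.78 and 9.0 to 7.50, 7.59 and 7.16 in rpb2-10, and the difference was 3.94 ± 0.30. TKL2, a transketolase, rose by 2.53 ± 0.15 and stood at 0.05 ± 0.06. Genes of glycogen and trehalose metabolism such as GPH1, GLC3 and TSL1 rose by 2.06, 2.31 and 1.36 in rpb1S751F and had effects of -0.82, -0.22 and -0.02 in rpb2-10, the first of these a called fall. Catalase CTT1 and DDR2 rose by 2.04 and 2.49 and fell by 0.36 and 0.41.

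Heat shock genes were called higher more often than all genes in both mutants. Of 29 chaperone genes, 7 had a difference above 0 (24.1%, against 32.0% of all genes) and 4 below (13.8%, against 21.8%). In rpb1S751F 13 were higher (44.8%, against 30.8%), with a median of 0.41. That count was 10 without WT1B replicate 2 and 21 with array weights. In rpb2-10 19 were higher (65.5%, against 32.0%), with a median of 0.34. The median of the difference, 0.06, turned to -0.01 with centred arrays. SIS1 and STI1, co-chaperones of Hsp70 and Hsp90, rose by 1.30 and 0.94 in rpb1S751F and by 1.24 and 0.82 in rpb2-10 without a called difference. SSA3, a stress-induced Hsp70, had the largest difference of the list: it read 8.64, 8.83 and 8.73 in WT1B and 11.22, 11.94 and 11.65 in rpb1S751F, against 7.53, 7.55 and 7.50 in WT1A and 7.50, 7.43 and 7.60 in rpb2-10. CDC37, a co-chaperone of kinases, rose by 0.48 ± 0.06 in rpb2-10 and stood at -0.16 ± 0.09 in rpb1S751F. Of 27 oxidative stress genes, 11 differences were above 0 (40.7%, against 32.0% of all genes) and 7 below (25.9%, against 21.8%). The glutathione transferase gene GTT2 rose by 2.31 ± 0.14 and fell by 0.65 ± 0.09, while the peroxidase gene GPX2 fell by 2.64 ± 0.12 in rpb1S751F and by 0.31 ± 0.07 in rpb2-10.

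**Figure D5:**
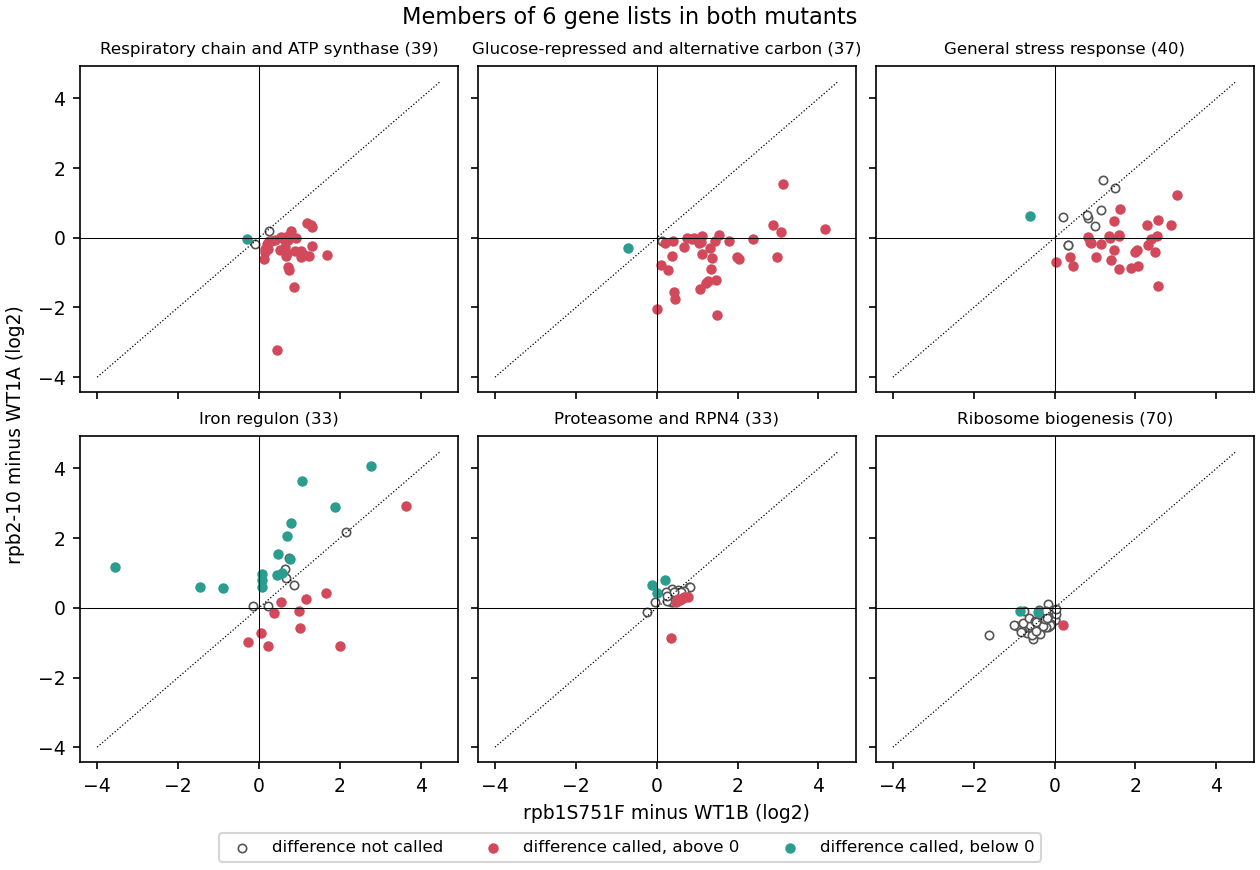
Each point is a member of 1 of 6 gene lists, with the log2 effect of rpb1S751F across and that of rpb2-10 up; filled points have a called difference and the dotted line marks equal effects. Respiratory, alternative carbon and stress genes lie right of and below the line, iron genes lie on both sides, and the proteasome and ribosome biogenesis genes cluster on the line, above and below 0.

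Some changes were shared. In 865 genes both effects were called on the same side and the difference was not called. Of these, 458 were higher (8.41% of all genes) and 407 lower (7.47%). A missing call does not show equal effects, and the 95% interval of the difference gives the range that the arrays allow. MEP2, an ammonium permease, fell by 2.41 ± 0.10 in rpb1S751F, from 12.26, 12.54 and 12.56 to 10.12, 10.00 and 10.02. It fell by 2.46 ± 0.05 in rpb2-10, from 10.49, 10.51 and 10.41 to 7.97, 8.08 and 7.99. The difference of the falls was 0.05, with an interval of -0.20 to 0.30. ZRT1, the high-affinity zinc transporter, fell by 1.64 and 2.03 (interval -0.29 to 1.05), and the unnamed gene YNL277W-A by 1.94 and 1.92 (-0.50 to 0.46). YGR035C and YOR338W fell by 3.10 and 2.24 in rpb1S751F and by 2.75 and 2.77 in rpb2-10, with wide intervals of -1.45 to 0.75 and -0.54 to 1.59.

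Among shared rises, LSO1, a ribosome-associated protein induced by low iron, rose by 2.15 ± 0.29 and 2.17 ± 0.12. Its levels of 3.21 to 3.65 in WT1B and 1.32 to 1.44 in WT1A lay below the 95th percentile of the probe sets of another species, so these rises started at background. THI7, the thiamine transporter, rose by 1.70 ± 0.12 and 1.38 ± 0.07, with an interval for the difference of 0.01 to 0.63 before adjustment and an adjusted p of 0.078 (limma). GPM2, a homologue of phosphoglycerate mutase, rose by 2.51 and 1.98 (interval -0.60 to 1.65), the small heat shock protein gene HSP42 by 1.49 and 1.42 (-0.80 to 0.93), and GOR1, a glyoxylate reductase, by 1.35 and 1.89 (-1.31 to 0.24).

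Most proteasome genes rose in both mutants. Of 33 genes, 27 were higher in rpb1S751F (81.8%, against 30.8% of all genes) and 31 in rpb2-10 (93.9%, against 32.0%). The medians were 0.44 and 0.35, and 20 genes were higher in both without a called difference, against 8.41% of all genes. List medians by array were 0.37, 0.49 and 0.47 in rpb1S751F and 0.37, 0.35 and 0.42 in rpb2-10, so the mutants overlapped. The difference was called above 0 for 7 genes (21.2%, against 32.0% of all genes) and below 0 for 3 (9.09%, against 21.8%). Centring the arrays gave 6 and 7, and leaving out WT1B replicate 3 gave 11 above 0. RPN4, the transcription factor that activates proteasome genes, rose with them in rpb1S751F but not in rpb2-10. It rose by 0.35 ± 0.08 in rpb1S751F, from 10.44, 10.62 and 10.49 to 10.78, 10.95 and 10.88, and fell by 0.88 ± 0.09 in rpb2-10, from 8.79, 8.80 and 8.67 to 7.86, 7.71 and 8.06. RPN8, a subunit of the regulatory lid, rose by 0.64 ± 0.05 in rpb2-10 and stood at -0.12 ± 0.09 in rpb1S751F.

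Ribosome biogenesis genes were mostly lower in rpb2-10, where 59 of 70 fell (84.3% against 39.1% of all genes, median -0.42). In rpb1S751F 18 fell (25.7%, near the 22.8% of all genes) and none rose, with a median of -0.35. The rpb1S751F count depended on the arrays and the setting: array medians of the list were -0.01, -0.53 and -0.44, and the count was 44 without rpb1S751F replicate 1, 27 without WT1B replicate 3, and 6 or 7 without any other single array of the alpha set, and it was 63 with array weights. A difference was called for 3 of the 70 (4.29%), TIF6 at 0.69 ± 0.15 above 0 and RRP36 and NOP10 below 0, at -0.77 ± 0.22 and -0.30 ± 0.12. Without rpb1S751F replicate 1, that is 1 above and 11 below, and without rpb1S751F replicate 2 it is 5 and 1. Among 127 cytosolic ribosomal protein genes, 21 fell in rpb1S751F (16.5%) and 37 in rpb2-10 (29.1%), both below the shares of all genes, 2 differences lay above 0 and 8 below, and medians were -0.12 and -0.08. Leaving out 1 array at a time gave 10 to 32 in place of the 21 and 16 to 30 in place of the 37, the fit of all 15 arrays gave 56 and 18, and centring on array medians took the 37 to 12 and the 8 to 16. RPS22B stood out from its list, with a fall of 2.99 ± 0.12 in rpb1S751F, from 13.93, 13.86 and 13.86 to 10.98, 10.64 and 11.07, and of 0.32 ± 0.05 in rpb2-10. Mitochondrial ribosomal protein genes fell more often than all genes in both mutants. Of 64, 29 fell in rpb1S751F (45.3%, against 22.8% of all genes) and 51 in rpb2-10 (79.7%, against 39.1%). Differences lay above 0 for 26 (40.6%, against 32.0%) and below 0 for 15 (23.4%, against 21.8%). MRPL32 fell by 1.5 ± 0.09 in rpb1S751F and stood at -0.11 ± 0.07 in rpb2-10, whereas MRPL16 rose by 0.68 ± 0.08 and fell by 0.20 ± 0.05.

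Iron genes were raised in both strains, with members that favoured 1 mutant or the other. The regulon of Aft1 serves iron uptake when iron is short. Of 33 genes, 19 were higher in rpb1S751F (57.6%, against 30.8% of all genes, median 0.65). In rpb2-10 24 were higher (72.7%, against 32.0%, median 0.80). Of the differences, 11 were above 0 (33.3%, against 32.0%) and 15 below (45.45%, against 21.8%). The 15 fell to 9 without WT1B replicate 2 or rpb1S751F replicate 3 and to 10 without WT1A replicate 3 or rpb2-10 replicate 1, so no side prevailed. FIT2 and FIT3, cell wall proteins that retain siderophore iron, rose by 2.77 ± 0.39 and 3.65 ± 0.13 in rpb1S751F and by 4.07 ± 0.11 and 2.94 ± 0.10 in rpb2-10. ARN1, a siderophore transporter, rose by 1.07 ± 0.18 and 3.64 ± 0.06. FET3, the high-affinity iron oxidase, rose by 1.55 in rpb2-10 and stood at 0.48 in rpb1S751F without a call. HMX1, a heme oxygenase, read 9.64, 9.65 and 9.87 in WT1B and 11.57, 11.85 and 11.79 in rpb1S751F, but fell from 8.92, 9.02 and 8.76 to 7.85, 7.75 and 7.84 in rpb2-10. The difference of 3.10 ± 0.13 for HMX1 and that of -4.74 for ATX1 mark the ends of this list.

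Copper genes tilted towards rpb2-10. Of 11 genes, 8 had a difference below 0 (72.7%, against 21.8% of all genes) and 3 above (27.3%, against 32.0%), with a median of -0.74. CTR1, the high-affinity copper transporter, fell by 1.25 in rpb1S751F and rose by 0.48 in rpb2-10. FRE1, a reductase that serves copper and iron uptake and is counted with the iron genes here, fell by 1.46 and rose by 0.60. MAC1, the copper-sensing activator of CTR1, moved the other way, with a rise of 0.57 ± 0.10 and a fall of 0.23 ± 0.06.

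Phosphate genes fell in both mutants to different depths. Of 26 genes, 17 were lower in rpb1S751F (65.4%, against 22.8% of all genes) and 18 in rpb2-10 (69.2%, against 39.1%). The difference was above 0 for 8 (30.8%, against 32.0%) and below 0 for 12 (46.15%, against 21.8%). SPL2 read 12.46, 12.45 and 11.94 in WT1B and 6.86, 7.2 and 6.68 in rpb1S751F. In the a set it read 8.97, 9.09 and 9.14 in WT1A and 7.47, 7.64 and 7.09 in rpb2-10. PHO11, an acid phosphatase with shared probes, fell by 4.08 ± 0.10 and 1.04 ± 0.10, and PHO84, the high-affinity phosphate transporter, by 1.95 and 0.37. PHO5, the main acid phosphatase, and PHO89, a sodium-phosphate symporter, had effects of -3.92 and -4.60 in rpb2-10 against -2.89 and -2.83 in rpb1S751F. PHO80, the cyclin that represses the pathway, fell by 0.75 ± 0.05 in rpb2-10 and stood at 0.07 ± 0.07 in rpb1S751F. Zinc genes were near all genes, with 4 of 12 differences above 0 (33.3%, against 32.0%) and 2 below (16.7%, against 21.8%). INO1, an inositol synthesis gene that responds to zinc, rose by 0.83 ± 0.17 and fell by 1.91 ± 0.15.

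Nitrogen genes fell more often than all genes in both mutants, and amino acid genes did so in rpb2-10. Of 29 genes under nitrogen catabolite repression, 24 fell in rpb2-10 (82.8%, against 39.1% of all genes, median -0.94). In rpb1S751F 16 fell (55.2%, against 22.8%) and 10 rose (34.5%, against 30.8%), with a median of -0.31. This left 19 differences above 0 (65.5%, against 32.0%) and 2 below (6.9%, against 21.8%). Without WT1B replicate 2 the 16 became 10. DUR3, a urea transporter, read 7.29, 7.41 and 7.35 in WT1B and 7.81, 8.07 and 7.81 in rpb1S751F, and fell from 6.75, 6.92 and 6.68 to 5.04, 4.88 and 5.04 in rpb2-10. The proline catabolic genes PUT1 and PUT2 rose by 0.59 and 1.13 and fell by 2.61 and 0.94, as did PUT4 above. DCG1 fell by 1.71 ± 0.10 in rpb1S751F and stood at 0.10 ± 0.06 in rpb2-10. Of 51 genes for amino acid synthesis, many of them targets of the activator Gcn4, 28 had a difference above 0 and 2 below. In rpb2-10 29 of them fell (56.9% against 39.1% of all genes) and 8 rose, and in rpb1S751F 19 rose (37.3% against 30.8%) and 9 fell. HIS4 rose by 0.50 ± 0.06 and fell by 1.33 ± 0.08, and ARG4 rose by 0.49 ± 0.09 and fell by 1.27 ± 0.08. For HIS4 the arrays read 11.13, 11.15 and 11.17, then 11.66, 11.67 and 11.63 in the alpha set. In the a set they read 10.42, 10.43 and 10.14, then 9.04, 8.90 and 9.06. Mutant and wild type did not overlap, as in 62.5% of all genes for rpb1S751F and 76.1% for rpb2-10. Sulphur genes had 13 of 28 differences above 0 (46.4%, against 32.0% of all genes) and 6 below (21.4%, against 21.8%). The 13 became 9 without WT1B replicate 2, rpb1S751F replicate 2, WT1A replicate 3 or rpb2-10 replicate 2 each. MET10, a sulphite reductase subunit, rose by 1.03 ± 0.09 and fell by 0.97 ± 0.09, while SAM2, an S-adenosylmethionine synthetase, fell by 0.93 ± 0.06 in rpb1S751F and stood at 0.00 ± 0.05.

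Nucleotide synthesis bears on polymerase mutants because low nucleotide pools slow elongation. Of 35 such genes, 14 had a difference above 0 and 4 below, and the 51.4% called is near the 53.9% of all genes. IMD2, an inosine monophosphate dehydrogenase whose level responds to guanine nucleotides, rose in both mutants, by 2.86 ± 0.13 and 2.39 ± 0.07, with a called difference of 0.48 ± 0.16, and its probes are shared with related genes. URA10 rose by 0.78 ± 0.09 and fell by 0.64 ± 0.09, and URA2, which starts pyrimidine synthesis, rose by 0.99 ± 0.09 and fell by 0.28 ± 0.08. For URA2 the arrays read 12.34, 12.38 and 12.17 in WT1B, 13.38, 13.22 and 13.27 in rpb1S751F, 11.44, 11.34 and 11.26 in WT1A and 11.04, 10.94 and 11.22 in rpb2-10.

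Genes of the transcription machinery had called differences about as often as all genes (53.9%), in 50% of RNA polymerase II subunits and 51.7% of elongation factors. Of the 12 subunits, 4 had a difference above 0 and 2 below, all within 0.61 of 0, and 3 and 3 with centred arrays. RPB4 and RPB3 fell by 0.51 ± 0.07 and 0.43 ± 0.10 in rpb1S751F, with effects of -0.07 ± 0.05, not called, and 0.19 ± 0.05, a called rise, in rpb2-10. Among 29 elongation factors and cotranscriptional histone modifiers the split was 9 above and 6 below, and 4 and 10 with centred arrays, so no direction is given for the list. SGV1, the kinase also called Bur1, rose by 0.92 ± 0.11 in rpb1S751F and stood at 0.02 ± 0.07 in rpb2-10. CTK1, a kinase of the Rpb1 tail, fell in both, by 0.84 ± 0.08 and 0.37 ± 0.06, and SPT6, a histone chaperone, fell by 0.59 in rpb1S751F and stood at 0.09 in rpb2-10. DST1, which encodes the elongation factor TFIIS, rose by 0.39 and 0.14. Of 25 genes for messenger export and RNA-DNA hybrid removal, 5 differences were above 0 and 6 below, and 10 below with centred arrays. Members of the TREX-2 export complex disagreed: SUS1 fell by 1.45 ± 0.18 in rpb1S751F, SEM1 fell by 0.63 ± 0.11 there and rose by 0.44 ± 0.05 in rpb2-10, and THP1 fell by 0.53 ± 0.05 in rpb2-10 and stood at 0.03 ± 0.07 in rpb1S751F. SUS1 contains introns, but these arrays do not separate spliced from unspliced RNA.

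Cell wall genes split by mutant. Of 32 wall mannoproteins and PIR proteins, 18 had a difference above 0 and 7 below, with a median of 0.73, and the 7 became 4 without rpb1S751F replicate 3 or WT1A replicate 2. Besides PIR3 and CWP1, PIR1 and HSP150 fell by 1.52 and 1.21 in rpb2-10, with -0.26, a called fall, and 0.02 in rpb1S751F, and FLO1, FLO9 (with shared probes) and FLO10 of the flocculin family rose by 1.04, 0.75 and 1.23 in rpb1S751F and fell by 0.39, 0.62 and 0.34 in rpb2-10. The cell wall integrity pathway was lower in rpb2-10, where 14 of 26 genes fell (53.8% against 39.1% of all genes) and 4 rose. In rpb1S751F 4 rose and 3 fell, and the 4 were 1 without WT1B replicate 1 and 9 with array weights. SLT2, its MAP kinase, read 9.75, 9.83 and 9.73 in WT1A and 8.03, 8.08 and 8.02 in rpb2-10, a fall of 1.73 ± 0.05, and stood at 0.11 ± 0.09 in rpb1S751F. KDX1, a kinase homologue under its control, fell by 2.54 ± 0.09 and stood at -0.44 ± 0.18. Hypoxic genes had 9 of 22 differences above 0 (40.9%, against 32.0% of all genes) and 6 below (27.3%, against 21.8%). TIR1, a wall protein of hypoxic cells, rose by 1.01 ± 0.15 and fell by 1.02 ± 0.07. AAC3, a hypoxic ADP/ATP carrier, fell by 1.96 ± 0.11 and 0.38 ± 0.06. Ergosterol genes had 14 of 29 above 0 (48.3%, against 32.0% of all genes) and 8 below (27.6%, against 21.8%). ERG10 of the first step was up by 0.58 ± 0.07 and down by 0.53 ± 0.05. The desaturase gene ERG3 was down by 0.65 ± 0.07 and up by 0.30 ± 0.06.

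Of 26 DNA damage-inducible genes, 9 differences were above 0 (34.6% against 32.0% of all genes) and 1 below, and DDI3, described above, had the highest at 5.29. DDR48 rose by 1.80 ± 0.06 in rpb2-10, from 8.76, 8.74 and 8.93 to 10.61, 10.66 and 10.57, and stood at 0.26 ± 0.12 in rpb1S751F, while HUG1, a marker of the replication checkpoint, rose in both, by 2.30 and 1.64. Of 52 replication genes, 19 differences were above 0 (36.5%) and 7 below (13.5%), so that 50% were called, near the 53.9% of all genes. ORC1, needed to mark replication origins, fell by 1.21 ± 0.12 in rpb1S751F and stood at -0.01 ± 0.06 in rpb2-10. TAH11, a licensing factor, rose by 0.61 ± 0.08 and stood at 0.05 ± 0.05. Cyclin genes had 8 of 19 above 0 and 1, CLB2, below, with PCL5 up by 0.38 ± 0.08 and down by 0.83 ± 0.11. Of 10 histone genes, HTB1 was above 0, by 0.34 ± 0.07, and HTZ1 and HTB2 were below, HTZ1 by -0.42 ± 0.10. Autophagy genes had 11 of 26 above 0 and 5 below, and 8 and 8 with joint quantile normalisation. ATG11 rose in both, by 0.92 ± 0.07 and 0.23 ± 0.06, while ATG27 fell by 0.21 ± 0.07 and rose by 0.41 ± 0.05.

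Genes of mating and meiosis were examined because the mutants differ in mating type. Of 7 genes specific to a cells, 4 had a difference above 0 and 1 below, and of 5 alpha-specific genes 3 had a difference below 0. Low signals of a-specific genes rose in rpb1S751F, an alpha strain: AGA2 went from 4.79, 5.23 and 5.20 to 7.0, 7.60 and 7.04, while BAR1 went from 6.97, 7.17 and 6.99 to 3.96, 4.49 and 4.11. Summed over the 7 genes on the linear scale after centring, the a-specific level was -0.63 to -0.59 (log2) in WT1B, 0.08 to 0.39 in rpb1S751F, 4.46 to 4.56 in WT1A and 4.65 to 4.92 in rpb2-10. The rpb1S751F arrays thus lay above WT1B and far below the a strains. The alpha-specific sum was 5.14 to 5.29 in WT1B and 4.29 to 4.84 in rpb1S751F, and 0.02 to 0.25 in the a strains. STE3, the a-factor receptor gene of alpha cells, rose by 1.60 ± 0.08 in rpb2-10, an a strain, from 3.95, 3.97 and 3.97 to 5.72, 5.57 and 5.41, and stood at -0.30 ± 0.14 in rpb1S751F. The part of these signals in other results was not tested. Of 31 pheromone response genes, 15 differences were above 0 (48.4%, against 32.0% of all genes) and 1 below (3.23%, against 21.8%). With joint quantile normalisation the counts were 10 and 8. PRM5 and FIG2 rose by 1.17 ± 0.12 and 0.55 ± 0.09 in rpb1S751F, with -0.07, not called, and -0.18, a called fall, in rpb2-10. Of 38 meiosis genes, mostly silent in growing haploids, 22 differences were above 0 and 2 below, but 8 and 13 with joint quantile normalisation, so no direction is given for the list. SGA1 and IME2 rose by 2.33 ± 0.08 and 1.08 ± 0.12 in rpb1S751F and fell by 0.85 ± 0.13 and 1.48 ± 0.11 in rpb2-10.

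The marker genes of the W303 background were followed because the labels give all strains the same alleles. Of 5 measured genes, 4 had a difference above 0 and URA3 one below. LEU2 read 11.15, 10.98 and 11.41 in WT1B, 11.92, 11.46 and 11.54 in rpb1S751F, 9.64, 9.85 and 9.66 in WT1A and 8.01, 8.11 and 8.07 in rpb2-10, with effects of 0.46 ± 0.16 and -1.65 ± 0.07. ADE2 rose by 0.82 ± 0.12 and fell by 0.58 ± 0.07, and CAN1, the arginine permease gene, fell by 0.84 ± 0.15 and 1.58 ± 0.07. URA3 had a difference of -0.37 (limma, adjusted p = 0.0318), a call that was lost under 11 of 21 alternatives. Next to HIS3 on the chromosome, MRM1 fell by 0.58 and 1.79 and DED1 by 0.80 and 1.41 in rpb1S751F and rpb2-10, so the genes on both sides of HIS3 were also lower in rpb2-10. Beside LEU2, YCL021W-A fell by 2.28 in rpb1S751F and had a difference of -2.50. Beside AQY2, YLL053C fell by 0.70 and rose by 1.97, and near YPL277C and YPL278C the S-adenosylmethionine permease gene SAM3 fell by 1.92 and rose by 1.12. Whether such neighbouring changes share a source was not tested.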

How the data were processed

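The authors deposited log2 expression values per probe set and array; per the submitters' processing notes, which give no versions, RMA and limma were used, and the role of limma is not given in the sources used here. No per-sample column was left out. Gene names came from the platform annotation, with 12 symbols updated through an R64 gene table. Of 10928 probe sets, 5498 named 1 S. cerevisiae gene; the brightest was kept for 47 genes, leaving 5449. For 115 genes the probe set identifier marks shared probes.

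The difference was fitted on 12 arrays by lmFit and eBayes (limma 3.58.1, R 4.3.3), and each effect on the 6 arrays of its set. P-values are two-sided and were adjusted by Benjamini-Hochberg over the 5449 genes, with calls at 0.05. Errors are SE unless stated. The fit was tested on simulated data. Members and the 38 gene lists were chosen with earlier results of these data known. Genes named are RPO21, RPB2, the 10 highest and 10 lowest called differences without overlap of per-array effects, 5 per direction with opposite and 5 with shared effects by the smaller effect, up to 2 called per list by p, and the W303 markers. Other list members and neighbours were chosen after their values were seen. No sequences are printed.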

Additional observations from a re-analysis of the deposited data

Results flagged for a closer look

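The difference between the effects was itself tested, and it was called for 2936 genes, of which 720 had called effects on opposite sides. The highest differences of effects (log2, rpb1S751F minus rpb2-10) were 5.98 for HIS3, 5.29 for DDI3, 5.13 for PIR3, 4.85 for YDL241W, 4.73 for MBR1, 4.72 for CWP1, 4.22 for PUT4, 4.18 for SUE1, 4.16 for HXT7 and 3.94 for HSP12. The lowest were -4.74 for ATX1, -4.71 for MF(ALPHA)2, -4.19 for QDR2, -3.74 for YPL278C, -3.72 for YOR389W, -3.71 for SPL2, -3.64 for AQY2, -3.63 for YPL277C, -3.60 for GIS3 and -3.46 for PLB2. Among genes with opposite effects, YPS6 (3.15), MIX14 (-3.32) and DAD4 (-2.77) also differed. Outside the genes tested, 90 of 3470 probe sets without a gene name had a called difference (2.59%), and 35 of these reached at least 1, against 0 of 1746 probe sets for the other species (limma), where 147 had an unadjusted p below 0.05.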

How the results depend on the processing

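The calls of the difference numbered 2640 to 3083 when 1 array was left out, those of rpb1S751F 2282 to 3014 and of rpb2-10 3610 to 3783, while opposite calls numbered 575 to 721 and same-side genes without a called difference 663 to 947. No pairing by replicate number was used in the main fits. Same-numbered deviations of mutant and wild type correlated at 0.48, -0.02 and 0.38 in rpb1S751F, and differently numbered ones at -0.53 to 0.40. In rpb2-10 the values were -0.12, -0.02 and -0.24 for the same number and -0.14 to 0.24 for other numbers. With 3 arrays a group, these values do not settle whether same-numbered samples were paired. With the replicate block, calls were 3049 for the difference, 3169 for rpb1S751F, 3714 for rpb2-10, 756 on opposite sides and 912 on the same side. Total counts of calls over all genes lay within 1.5 times their value under the 21 alternatives run, but the lower calls of rpb1S751F went from 1245 to 1953 with array weights. The larger side turned for the difference, as given above, and for rpb2-10, which went to 2033 higher and 1854 lower with centred arrays and 1997 and 1883 with joint quantile normalisation. Array weights, whose estimation gave convergence warnings, gave 3291 differences, 4177 calls for rpb1S751F and 1024 on opposite sides, and the test with 1 variance per group gave 2286. Of 2178 values of named genes, 2158 kept direction and call and 0 reversed; URA3 lost its call under 11 alternatives, RRP36 and CAN1 lost theirs with 1 variance per group, and RPO21, THI7, YNL277W-A and YGR035C gained one under some. Of 819 list medians, 53 moved beyond the spread between replicates. The cause was not tested. Limits are 3 arrays a group, 1 strain a mutation, and background signal for dim genes.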

Other observations

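Genes near chromosome ends were looked at after the data had been seen. Of the 320 outermost measured genes, 10 at each end of 16 chromosomes, 153 had a difference above 0 (47.8%, against 32.0% of all genes) and 55 below 0 (17.2%, against 21.8%). Their median difference was 0.38, with medians of 0.28 for rpb1S751F and -0.11 for rpb2-10. Without the 51 genes with shared probes, 126 of 269 were above 0 and 50 below. These counts are a description and were not tested.

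Another mutant of the series, rpb1-1, shares the WT1B arrays with rpb1S751F, so its effects are given only side by side. PIR3 stood at 2.12 in rpb1-1, 1.94 in rpb1S751F and -3.19 in rpb2-10. HIS3 stood at -0.69, -0.22 and -6.20, and MF(ALPHA)2 at -5.40, -4.68 and 0.03. AQY2 stood at 2.37 in rpb1-1, -1.38 in rpb1S751F and 2.26 in rpb2-10, and GIS3 at 4.25, 0.04 and 3.63.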
